A study of Mus musculus with 4 samples.

Results

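The respiratory chain of mouse back skin was described gene by gene in single-cell RNA sequencing libraries of the epidermis. The chain was taken as the genes whose symbols mark subunits of complexes I to IV and of the ATP synthase, complex V, in the annotation the libraries were counted on. Of 32479 annotated genes, 101 matched, 13 of them on the mitochondrial genome and 88 in the nucleus. By complex, the mitochondrial genes comprised 7 of complex I, 1 of complex III, 3 of complex IV and 2 of complex V, and the nuclear genes 39, 4, 8, 19 and 18 of complexes I to V. Symbols alone decided which genes matched, by a rule chosen with earlier results of these data known. The complex IV genes therefore include Cox5b-ps, a pseudogene by its symbol, with 1555 counts over all cells.

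Dorsal epidermis had been taken from 4 female C57BL/6N mice at postnatal day 19. Both groups carried floxed CerS4 alleles, CerS4 being a ceramide synthase. The 2 control mice were CerS4fl/flK14Cre- and the 2 CerS4epi-/- mice CerS4fl/flK14Cre+, with Cre under the keratin-14 promoter, which is active in basal keratinocytes and inherited by their progeny. T cells and Langerhans cells do not derive from these keratinocytes. Each library was 1 mouse, and a p-value measures only the spread between these mice.

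Library totals were 39231945 to 53106317 counts. Of 34988 barcodes with at least 1200 counts, 34150 had at most 20% of their counts from mitochondrial genes (names starting mt-) and were kept, 7567 to 9086 per mouse. Sums of marker genes per cell placed 31829 of these in 10 gates, and 8 gates had at least 20 cells in every mouse and were tested: basal, cycling, spinous, granular, upper follicle, outer bulge, T cell and Langerhans. In the T cell gate the T cell markers summed to 17311 to 20640 CPM (counts scaled to a common total), the melanocyte markers to 0 in all 4 mice and the basal keratinocyte markers to 1421 to 5381 CPM. The libraries of the 2 control mice shared 0 cell barcodes, and so did those of the CerS4epi-/- mice, whereas pairs across genotypes shared 64 to 102 of 884736 possible barcodes. Genotype and barcode pool therefore cannot be told apart. Counts of Cers4 in the basal gate were 5 and 8 in control and 14 and 7 in CerS4epi-/- mice, too few for a check of the deletion. Over all cells they were 697 and 145 in control and 202 and 270 in CerS4epi-/- mice. As CPM these were 17.4 and 3.37 against 4.21 and 7.73, so the genotypes overlapped and the counts show no loss of the transcript.

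The respiratory chain passes electrons from NADH (through complex I) and succinate (through complex II) by way of complexes III and IV to oxygen, and complex V makes ATP from the proton gradient that results. The subunits of complex II are all nuclear, whereas the other complexes are built from both genomes. The mitochondrial genes are transcribed as long polycistronic RNAs that are cut into mRNAs, so their levels are set partly by processing and decay, and each nuclear gene has its own promoter. In the epidermis, basal cells divide and feed the spinous layer, and granular cells lose their mitochondria and nucleus as they cornify.

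All 13 mitochondrial genes lie on chrM of GRCm39, and mt-Nd6 alone on the minus strand. In 2 places the coding sequences overlap on 1 mRNA, and the sequences are shown because mt-Atp8 moved most with genotype in the counts below. mt-Atp8 occupies chrM:7766-7969 and mt-Atp6 chrM:7927-8607, and the 43 bases that both encode are in capitals in chrM:7897-7999, plus strand. The same is shown for the 7 bases shared by mt-Nd4l and mt-Nd4 in chrM:10137-10203. A read that covers the capitals, even in part, could be counted for either gene. Over all cells mt-Atp8 had 78548 counts and mt-Atp6 1835582, and how such reads were divided between them was not tested.
mt-Atp8 end and mt-Atp6 start: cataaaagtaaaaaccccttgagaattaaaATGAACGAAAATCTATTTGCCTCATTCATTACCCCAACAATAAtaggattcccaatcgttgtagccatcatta
mt-Nd4l end and mt-Nd4 start: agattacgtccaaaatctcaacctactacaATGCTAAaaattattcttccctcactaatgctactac

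Summed over the 13 genes, mitochondrial transcripts took a larger share of all counts in basal than in granular cells and were higher in CerS4epi-/- mice in most gates. In basal cells they were 9.90% and 9.71% of counts in the control mice and 11.2% and 10.9% in the CerS4epi-/- mice. In spinous cells the shares were 7.63% and 7.73% against 8.57% and 8.19%. The difference was wider in the upper follicle gate, where the control mice had 7.62% and 7.06% and the CerS4epi-/- mice 9.50% and 9.38%. Granular cells went the other way, with 4.18% and 4.33% in control against 4.03% and 3.75%. The T cell shares overlapped between genotypes, at 8.12% and 8.87% against 8.82% and 8.75%. Both CerS4epi-/- mice lay above both control mice in 6 of the 8 gates. With 2 mice against 2, an exact permutation test of such a share cannot reach p < 0.05, so the sums are given with no test.

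**Figure D1:**
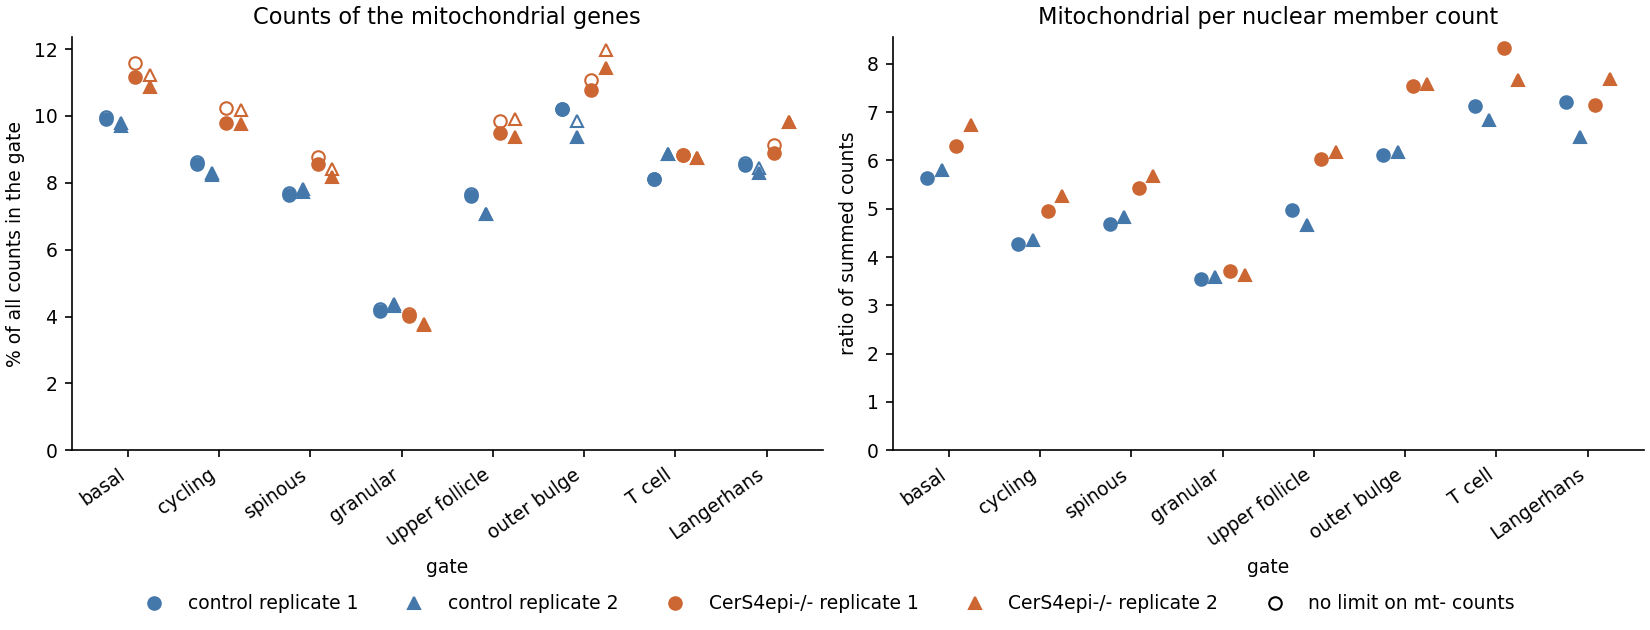
Share of counts from the 13 mitochondrial genes in each gate (percent of all counts, vertical axis), 1 point per mouse, with open symbols for the same cells and those over the limit of 20% mitochondrial counts, and on the right the ratio of mitochondrial to nuclear counts of the chain. Basal cells sit at 9.71% to 11.2% and granular cells at 3.75% to 4.33%, and the upper follicle gate has the widest gap between genotypes.

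The limit on mitochondrial counts bore on this difference. Before the limit, 0.796% and 0.992% of control cells and 3.87% and 4.01% of CerS4epi-/- cells were over 20%. Of upper follicle cells, 0.384% and 0.175% of control and 3.74% and 5.33% of CerS4epi-/- cells were over it, and in the granular gate 1.08%, 1.33%, 1.35% and 1.08% in the order control mice 1 and 2, CerS4epi-/- mice 1 and 2. Without a limit the basal shares became 9.96%, 9.78%, 11.6% and 11.2% in that order. With a limit of 10% they became 8.40%, 8.35%, 8.47% and 8.27%, and the genotypes overlapped. A limit this low cuts the measured quantity itself, here and wherever it is used below, so it cannot show whether the difference holds. Over all gates it kept 5879 of 8548 and 6461 of 9177 control barcodes. Of the CerS4epi-/- barcodes it kept 4581 of 9380 and 4039 of 7883. Under that limit both CerS4epi-/- mice lay above both controls in 2 of 8 gates, and the upper follicle gate, at 6.79%, 6.47%, 7.45% and 7.20%, was among them.

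The difference also varied with the depth of a cell. Among basal cells of 1200 to under 2000 counts, the median share per cell was 10.7%, 10.2%, 13.0% and 12.5% in the same order of mice. Among the 5 to 77 basal cells per mouse with at least 8000 counts, it was 8.89%, 9.32%, 9.45% and 8.11%, and the genotypes overlapped. Upper follicle cells of the lowest depth had 8.26%, 7.17%, 11.9% and 11.4%. In the deepest upper follicle cells, 18 to 167 per mouse, the medians were 7.76%, 6.75%, 8.37% and 7.69%. The genotype gap was thus widest in shallow cells of both gates. Spinous cells did not share this order. Their medians were 9.11%, 8.71%, 9.28% and 9.59% at the lowest depth and 8.20%, 8.28%, 9.83% and 9.09% at 4000 to under 8000 counts. At 8000 or more counts they were 6.01%, 6.17%, 7.41% and 6.42%, with the genotypes still apart.

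**Figure D2:**
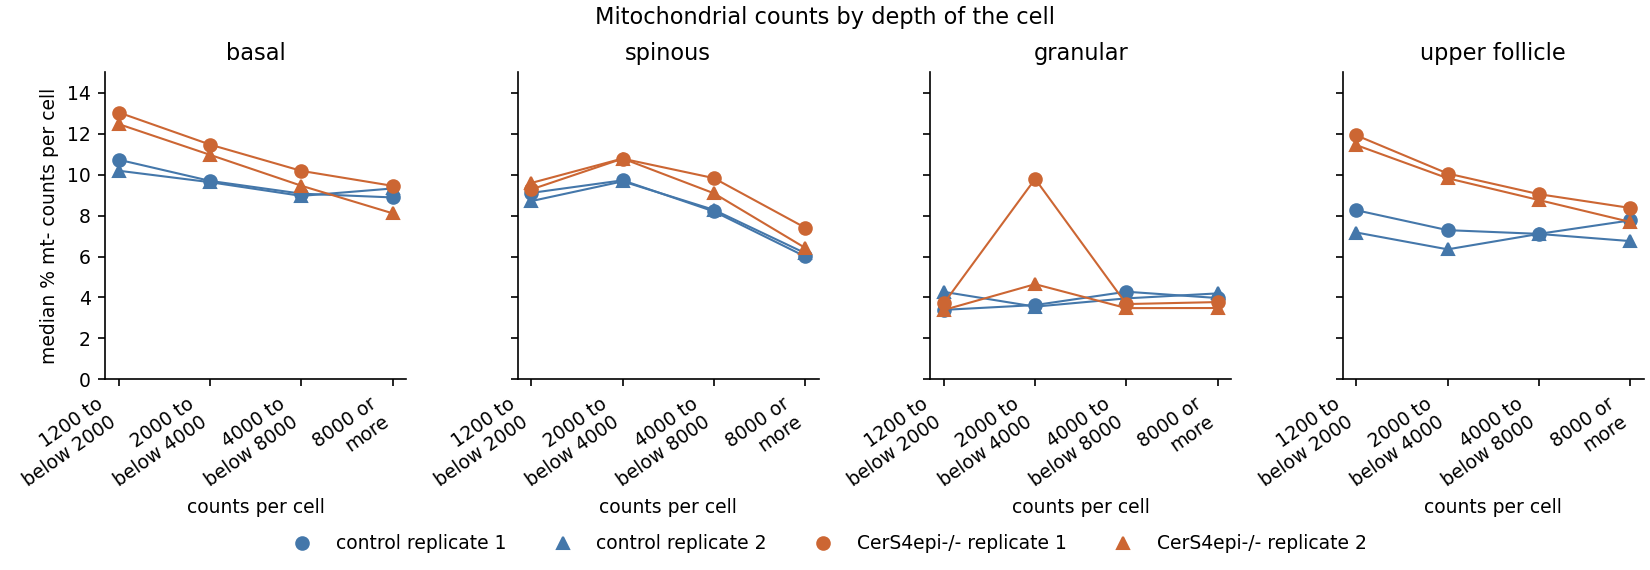
Median percent of mitochondrial counts per cell (vertical axis) by the counts of the cell (horizontal axis, 4 ranges), per gate, with 1 line per mouse and at most 20% mitochondrial counts. In basal and upper follicle cells the CerS4epi-/- lines start above the control lines and approach them with depth, and the deepest basal points rest on 5 to 77 cells per mouse, as the granular point at 9.79% does on 31 cells.

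Several measures moved with genotype beside these shares. In barcodes of 10 to 99 counts, too few for a cell, mitochondrial genes gave 6.87% and 6.36% of counts in control and 7.52% and 7.60% in CerS4epi-/- libraries. Genes of the early response to tissue dissociation (Fos, Jun and others) took 1.61% and 1.54% of non-mitochondrial counts of basal cells in control and 1.82% and 2.02% in CerS4epi-/- mice, but overlapped in upper follicle cells at 1.41%, 1.13%, 1.20% and 1.11%. The nuclear RNAs Malat1 and Neat1 took 0.0698% and 0.0729% against 0.0994% and 0.106% in upper follicle cells. In the same gate, all 6 basal markers were detected and summed to 4256 and 3871 CPM in control and 6044 and 6880 CPM in CerS4epi-/- mice. The 5 spinous markers, all detected, went the other way there, from 20233 and 22959 to 12955 and 12079 CPM, and the 3 inner bulge markers from 390 and 369 to 60.5 and 56.7 CPM. The upper follicle markers, which placed the cells in this gate, summed to 34913 and 32163 against 45109 and 49570 CPM. In basal cells the upper follicle markers summed to 429 and 388 against 807 and 992 CPM and the outer bulge markers to 193 and 140 against 414 and 403 CPM, and in cycling cells the spinous markers to 3356 and 3036 against 1984 and 1791 CPM. In the outer bulge gate the upper follicle markers summed to 7261 and 5254 against 20698 and 19061 CPM. The inner bulge markers there summed to 1832 and 4184 against 408 and 738 CPM, and the basal markers to 27034 and 29611 against 17889 and 21330 CPM. The outer bulge markers, which placed the cells, overlapped at 3539 and 3995 against 3597 and 3045 CPM. The part of all these measures in the result was not tested.

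The nuclear genes of the chain did not follow this pattern. As a share of non-mitochondrial counts, the 88 genes took 1.95% and 1.85% in control and 2.00% and 1.81% in CerS4epi-/- basal cells. Both CerS4epi-/- mice lay above both controls in 1 of 8 gates, the upper follicle gate, at 1.66%, 1.63%, 1.74% and 1.67%. In granular cells both lay below, at 1.23% and 1.26% against 1.13% and 1.07%. Mitochondrial counts per nuclear count of the chain were thus 5.64 and 5.81 in control and 6.30 and 6.73 in CerS4epi-/- basal cells, and 4.96 and 4.67 against 6.02 and 6.18 in the upper follicle gate. In this ratio both CerS4epi-/- mice lay above both controls in 7 of 8 gates, T cells included, at 7.12 and 6.84 against 8.32 and 7.67. It was 6 of 8 gates under the limit of 10%. Sebaceous cells, 2 to 29 per mouse and not tested, had the highest nuclear share of the 10 gates, 3.35%, 4.49%, 3.76% and 3.82%.

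Gene by gene, the mitochondrial genes were compared between genotypes on summed counts per mouse and gate with edgeR's quasi-likelihood test and Benjamini-Hochberg adjustment over all genes. In basal cells 4 of 13 rose and none fell in CerS4epi-/- mice, against 4.5% of all genes tested called higher and 3.01% called lower. mt-Atp8, a small membrane subunit of complex V, stood at 546 and 556 CPM in control and 806 and 796 CPM in CerS4epi-/- basal cells. All CerS4epi-/- values lay above the controls, and the log2 difference was 0.59 (SE 0.068, edgeR adjusted p = 0.0014). mt-Nd5, a proton-pumping subunit of complex I, rose by log2 0.31 from 2061 and 2019 to 2508 and 2382 CPM. The complex IV core subunits mt-Co1 and mt-Co2 rose by log2 0.26 and 0.31. The other genes were not called, and mt-Nd3 differed by log2 0.06 (SE 0.074), with mice that overlapped. The list's median was 0.20, against 0.0033 over all genes. Without either one of the CerS4epi-/- mice, which leaves 1 mouse in that group, edgeR lost these calls. Most calls over all genes were lost in the same fits, so the loss is not particular to the mitochondrial genes. Under the limit of 10%, 1 of the 13 was called, beside 336 higher and 171 lower of 11584 genes.

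Of the mitochondrial genes in the upper follicle gate, 8 of 13 rose and none fell, beside 8.4% of all genes higher and 6.3% lower. mt-Atp8 again differed most, from 355 and 352 CPM in control to 590 and 628 CPM in CerS4epi-/- mice, by log2 0.86 (SE 0.10, edgeR adjusted p = 1.41e-04). mt-Co1, mt-Co2 and mt-Co3 rose by log2 0.46, 0.52 and 0.42, mt-Cytb of complex III by 0.48, mt-Atp6 by 0.48, and mt-Nd4 and mt-Nd5 by 0.46 and 0.55. mt-Nd1, mt-Nd2 and mt-Nd3 differed by 0.29, 0.27 and 0.15 and were not called. Under the limit of 10% mitochondrial counts, 1 of the 13 was called, and without control mouse 2 there were 2.

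In cycling cells 3 of 13 rose and none fell (0.853% of all genes higher, 0.292% lower), namely mt-Atp8 by log2 0.55, mt-Nd5 by 0.40 and mt-Co2 by 0.32. These calls were lost when any 1 mouse was left out, as were most calls over all genes. Under the limit of 10% none of the 13 was called, beside 32 higher and 7 lower of 8466 genes. In spinous cells mt-Atp8 rose, by log2 0.45 from 396 and 398 to 556 and 533 CPM (edgeR adjusted p = 0.0085), and edgeR called no other mitochondrial gene (3 at an unadjusted p under 0.05 with mt-Atp8 among them, and DESeq2 called 2), beside 3.54% of all genes higher and 2.93% lower. No mitochondrial gene was called under the 10% limit in these cells.

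In granular cells mt-Nd1, mt-Nd2 and mt-Nd3, subunits of complex I, fell in CerS4epi-/- mice (log2 -0.28, -0.33 and -0.34), and none of the 13 rose, against 6.82% of all genes higher and 4.03% lower. mt-Nd1 went from 3134 and 3048 CPM in control to 2480 and 2340 CPM. mt-Atp8 lay at 181 and 192 CPM in control and 195 and 189 CPM in CerS4epi-/- granular cells, with overlapping mice. None of the 3 was called without control mouse 1 or without CerS4epi-/- mouse 2. The dissociation response genes took 0.591% and 0.398% of non-mitochondrial counts in control and 0.779% and 0.756% in CerS4epi-/- granular cells, and the 11 granular markers summed to 53498 and 52163 against 62133 and 62287 CPM. Their part was not tested here either.

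In the outer bulge (12 mitochondrial genes tested, 2.5% of all genes higher and 1.75% lower), T cells (12 tested, 0.0% and 0.0%) and Langerhans cells (12 tested, 0.0638% and 0.128%), edgeR called none of the mitochondrial genes and neither did DESeq2. Unadjusted edgeR p-values were under 0.05 for 6 outer bulge genes, 1 T cell gene and 0 Langerhans genes. The T cell gene was mt-Atp8, at 380 and 377 CPM in control and 453 and 605 CPM in CerS4epi-/- mice, a log2 difference of 0.49 (SE 0.21). The T cell fit rested on 63 to 135 cells per mouse.

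**Figure D3:**
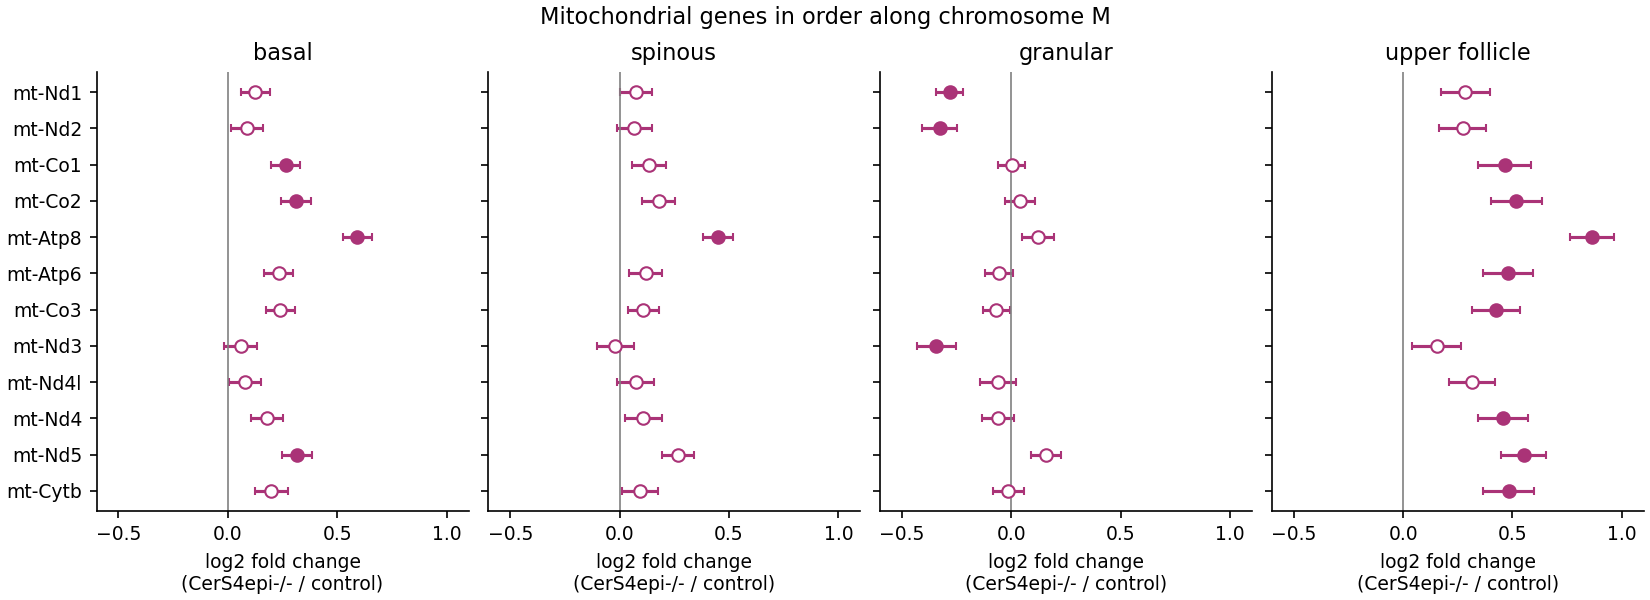
log2 difference of each mitochondrial gene, CerS4epi-/- against control (horizontal axis), per gate, with SE bars and filled points for an edgeR adjusted p under 0.05. mt-Atp8 has the largest difference in basal (0.59) and upper follicle (0.86) cells, granular points reach below 0, and mt-Nd6, with 1464 counts over all cells, was left out.

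Whether the genotype effect differed between cell types was tested against basal cells as an interaction. The granular effect was lower than the basal effect for 4 of 13 mitochondrial genes and higher for none, beside 2.75% of all genes higher and 2.39% lower. The differences were log2 -0.46 (SE 0.094) for mt-Atp8, -0.41 for mt-Nd2 and -0.40 for both mt-Nd1 and mt-Nd3. The edgeR adjusted p-values of these ran from 0.0124 to 0.0227. The count was 5 without control mouse 2, 2 without control mouse 1 or CerS4epi-/- mouse 1 and 0 without CerS4epi-/- mouse 2. The spinous (1.76% higher, 1.48% lower), upper follicle (3.42% and 3.54%), T cell (0.0786% and 0.196%) and Langerhans (0.0322% and 0.651%) effects differed from the basal effect for 0 of 13 mitochondrial genes with edgeR and with DESeq2. Unadjusted edgeR p-values were under 0.05 for 2 spinous, 8 upper follicle, 0 T cell and 0 Langerhans genes. For the upper follicle gate, 8 were called without CerS4epi-/- mouse 1 and 5 without mouse 2. A larger rise there than in basal cells was therefore not shown with all 4 mice.

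Across cell types, the mitochondrial genes were lower in granular, spinous, cycling and T cells than in basal cells of the same mice, in a fit with the mouse as a block. All 13 were lower in granular cells, with a median log2 difference of -0.65 against -0.16 over all genes (39.2% of genes higher, 45.3% lower). mt-Nd4l differed most, by -1.26, and mt-Co3 least, by -0.24. In spinous cells 11 were lower and none higher (33.7% and 35.5% of all genes), with a median of -0.18, and in cycling cells 11 and none (20% and 20.6%), with a median of -0.20. All 13 were lower in T cells (19.4% higher and 26.5% lower of all genes), with a median of -0.51 against -0.20 over all genes. In Langerhans cells 10 were lower (15.4% and 19%), a count that fell to 1 with DESeq2 and to between 3 and 6 when any 1 mouse was left out. Upper follicle cells had 8 lower (29.4% and 30.3%), mt-Nd2 with a log2 difference of -0.58, while mt-Co2 and mt-Co3 stood at 0.03 and 0.08. No gene was called in the outer bulge with edgeR or DESeq2 (12.8% and 11.8%). Under the limit of 10% the counts were 4 in spinous, 4 in cycling and 6 in T cells, and by library totals 7 in T cells. The sign of mt-Co3 turned under that limit, to 0.16 in spinous and 0.12 in granular cells, the former past the threshold.

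These differences depend on how the gates are scaled to each other. In granular cells the 20 most abundant genes took 23.6% to 24.2% of counts, against 16.8% to 17.9% in basal cells, and edgeR's trimmed-mean (TMM) factors raised granular values by log2 0.77 relative to basal over the plain share of counts. The shift was 0.20 in spinous, 0.16 in upper follicle and -0.24 in T cells. Scaled by library totals alone, the median over all genes in granular cells was log2 -0.93. All 13 mitochondrial genes were lower in granular cells under both scalings. CPM values given here are plain shares and log2 differences those of the fit.

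Nuclear genes of the chain went both ways in granular cells, in shares near those over all genes. There 35 of 81 tested were higher (43.2%) and 31 lower (38.3%) than in basal cells, beside 39.2% and 45.3% of all genes. By library totals alone the split was 4 higher and 67 lower, so what follows is relative to the bulk of genes, not to total RNA. In complex I, 20 of 38 were higher and 11 lower, in complex II 0 and 4 of 4, in complex III 3 and 3 of 8, in complex IV 6 and 5 of 13 and in complex V 6 and 8 of 18. Spinous cells had 31 higher and 20 lower of 81 (33.7% and 35.5% of all genes), and 13 and 42 by library totals. Upper follicle cells had 21 higher and 13 lower (29.4% and 30.3% of all genes), and 7 and 31 by library totals.

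Cycling cells had 44 of 81 nuclear genes higher (54.3%) and 4 lower (4.94%) than basal cells, beside 20% and 20.6% of all genes, and the same counts by library totals. Their median was 0.21, beside -0.05 over all genes. By complex, 20 of 38 were higher in complex I, 3 of 4 in complex II, 2 of 8 in complex III, 9 of 13 in complex IV and 10 of 18 in complex V. Ndufa4 (0.72), Ndufa5 (0.69) and Ndufb7 (0.63), accessory subunits, were among the largest. Of 78 genes of the mitochondrial ribosome, which translates the mitochondrial mRNAs, 22 were higher and 3 lower. The mitochondrial genes of the chain were lower in the same cells, and mitochondrial counts per nuclear count were 4.27 to 5.26, against 5.64 to 6.73 in basal cells.

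**Figure D4:**
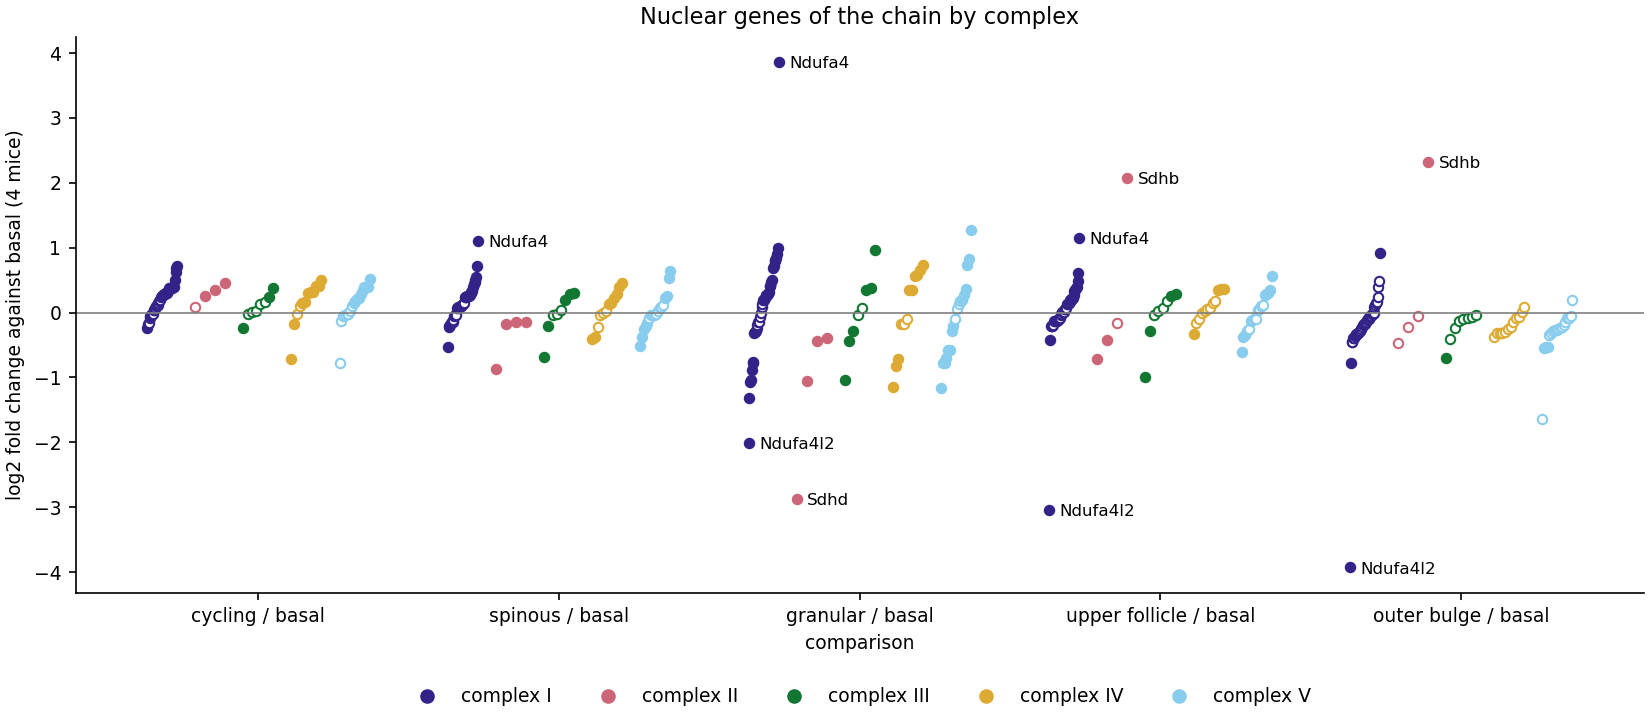
log2 difference from basal cells of the same mice for each nuclear gene of the chain (vertical axis), by gate and complex, with filled points for an edgeR adjusted p under 0.05. Ndufa4 stands at 3.86 and Sdhd at -2.87 in granular cells and Sdhb at 2.32 in the outer bulge, cycling points lie mostly above 0, and Cox6b2 and Cox7a1, with few counts, were left out.

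T cells and Langerhans cells had less of the nuclear chain than basal keratinocytes. In T cells 0 of 82 genes were higher with edgeR or DESeq2 and 66 lower (80.5%), beside 19.4% and 26.5% of all genes, with a median log2 difference of -0.82 beside -0.20 over all genes. Scaled by library totals, 3 were higher and 53 lower. In Langerhans cells 5 were higher (6.10%) and 45 lower (54.9%), beside 15.4% and 19% of all genes, with a median of -0.52 beside -0.24 over all genes, and 25 were lower with DESeq2. Uqcrc1, a core subunit of complex III, was lower in both, with log2 differences of -1.16 (SE 0.18) in T cells and -1.54 (SE 0.22) in Langerhans cells. Ndufb7 was higher in Langerhans cells by 0.80 (SE 0.22). Mitochondrial counts per nuclear count reached 6.84 to 8.32 in T cells and 6.49 to 7.69 in Langerhans cells, above the 3.54 to 3.70 of granular cells in every mouse. In the outer bulge 2 nuclear genes were higher, Sdhb and Ndufc2, and 7 lower, beside 12.8% and 11.8% of all genes.

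Ndufa4, named as a complex I subunit and since assigned to complex IV, set granular cells apart. In the counts and the figure by complex it was kept under complex I, by its symbol. Its level was 1158, 1205, 1306 and 1215 CPM in granular cells and 140, 131, 160 and 142 CPM in basal cells of control mice 1 and 2 and CerS4epi-/- mice 1 and 2. Every mouse was several-fold higher in granular cells, and the ranges were far apart. The fitted difference was log2 3.86 (SE 0.081, edgeR adjusted p = 1.45e-11). Spinous cells lay between, at 275, 288, 255 and 254 CPM (log2 1.11, SE 0.075), and so did upper follicle cells, at 273, 295, 284 and 283 CPM (log2 1.15, SE 0.077). Spinous and upper follicle values overlapped. T cells, at 181 to 264 CPM, and the outer bulge, at 109 to 202 CPM, did not differ from basal cells past the threshold.

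The paralogue Ndufa4l2, a hypoxia-induced gene known to lower complex I activity, had a different order. It stood at 444, 334, 294 and 284 CPM in basal cells and at a similar 386, 293, 308 and 292 CPM in spinous cells. Granular cells had 55.1, 57.5, 41.1 and 43.2 CPM, a log2 difference of -2.01 (SE 0.089). Upper follicle cells had 42.7, 52.5, 39.1 and 19.3 CPM (log2 -3.04, SE 0.18), and outer bulge cells 4.18 to 59.5 CPM (log2 -3.93, SE 0.27). Granular cells were therefore high in Ndufa4 and low in Ndufa4l2, and basal cells the reverse.

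The 4 subunits of complex II, succinate dehydrogenase, which also works in the TCA cycle, did not move together. Sdhb, the iron-sulfur subunit, stood at 37.5, 37.5, 42.7 and 44.5 CPM in basal cells. Upper follicle cells had 186, 170, 138 and 128 CPM (log2 2.08, SE 0.13) and outer bulge cells 217, 178, 216 and 221 CPM (log2 2.32, SE 0.16). Every follicle value lay above every basal value. Granular cells had 14.3, 13.5, 8.85 and 9.02 CPM, from 62 to 151 counts per mouse, and were lower than basal cells (log2 -1.06, SE 0.15).

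Sdhd, a membrane anchor, had another order. Basal cells had 111, 96.0, 110 and 111 CPM, spinous cells 53.4, 48.0, 56.0 and 45.8 CPM and granular cells 9.47, 10.3, 6.72 and 7.71 CPM. The order basal, spinous, granular held in every mouse, with a granular log2 difference of -2.87 (SE 0.12, edgeR adjusted p = 2.80e-09). In the upper follicle gate the log2 difference was -0.72. Sdha, the flavoprotein, and Sdhc, the other anchor, were lower in granular cells (log2 -0.40 and -0.44) and did not share the rise of Sdhb in the follicle gates (log2 -0.16 and -0.42 in the upper follicle gate). All 4 were lower in spinous and granular cells, and in cycling cells Sdhb, Sdhc and Sdhd were higher by 0.35, 0.25 and 0.45.

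The promoter windows of Sdhb and Sdhd are shown because these subunits of 1 enzyme differed in direction. Each runs from 250 bases before to 50 after the gene start in the RefSeq table of build GRCm38.p6, Sdhb at chr4:140961021-140961320 on the plus strand and Sdhd at chr9:50603800-50604099 on the minus strand. Capitals mark the letters GCGCATGC (core of the NRF1 motif) and CCGGAAG (core of the ETS motif), searched on both strands. NRF1 and ETS-family factors are known regulators of nuclear genes of the chain.
Sdhb: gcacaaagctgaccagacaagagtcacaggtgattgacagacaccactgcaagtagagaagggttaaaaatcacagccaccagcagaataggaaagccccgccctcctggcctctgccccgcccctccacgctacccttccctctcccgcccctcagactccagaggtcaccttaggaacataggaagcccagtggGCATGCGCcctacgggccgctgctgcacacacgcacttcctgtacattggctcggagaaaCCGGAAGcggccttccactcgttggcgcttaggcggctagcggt
Sdhd: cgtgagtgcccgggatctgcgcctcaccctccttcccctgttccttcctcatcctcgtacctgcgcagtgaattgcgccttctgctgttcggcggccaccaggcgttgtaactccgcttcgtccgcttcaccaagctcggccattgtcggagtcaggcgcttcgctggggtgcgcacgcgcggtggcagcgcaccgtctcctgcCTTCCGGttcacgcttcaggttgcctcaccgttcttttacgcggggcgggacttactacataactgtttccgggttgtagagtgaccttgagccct
The Sdhb window holds 1 match to each motif and the Sdhd window 1 to the ETS core. Of 87 nuclear symbols of the chain, 69 matched the table. The NRF1 core was in 10 of these (14.5%), against 3.05% of 27025 genes, and the ETS core in 17 (24.6%), against 9.93%. The window of Ndufa4 holds neither run of letters. A match is a run of letters, and no binding was measured.

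Isoforms of complex IV subunits were represented unequally. Cox4i1, the widely expressed form of a structural subunit, stood at 485 to 535 CPM in basal and 130 to 144 CPM in granular cells (log2 -1.15). Its paralogue Cox4i2 had 36 counts over all cells. Cox6a1, Cox6b1 and Cox7a2 were higher in granular cells by log2 0.56, 0.58 and 0.65 in the fit, and by library totals alone they were -0.21, -0.19 and -0.12. Their directions therefore rest on the scaling, unlike that of Cox4i1 and of Cox7a2l, a factor that joins complexes III and IV, which had -0.82. Cox6b2, known as the testis form of Cox6b1, had 29 to 72 counts per mouse in basal cells, at 3.20 to 6.33 CPM, and 3 to 8 counts per mouse in spinous cells (log2 -3.52, SE 0.25). In cycling cells it was higher than in basal cells by 1.55 (SE 0.25). The muscle forms Cox6a2 and Cox8b had 1 and 4 counts in all cells, and Cox7a1 had 80, of which 1 to 4 per mouse were in Langerhans cells.

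**Figure D5:**
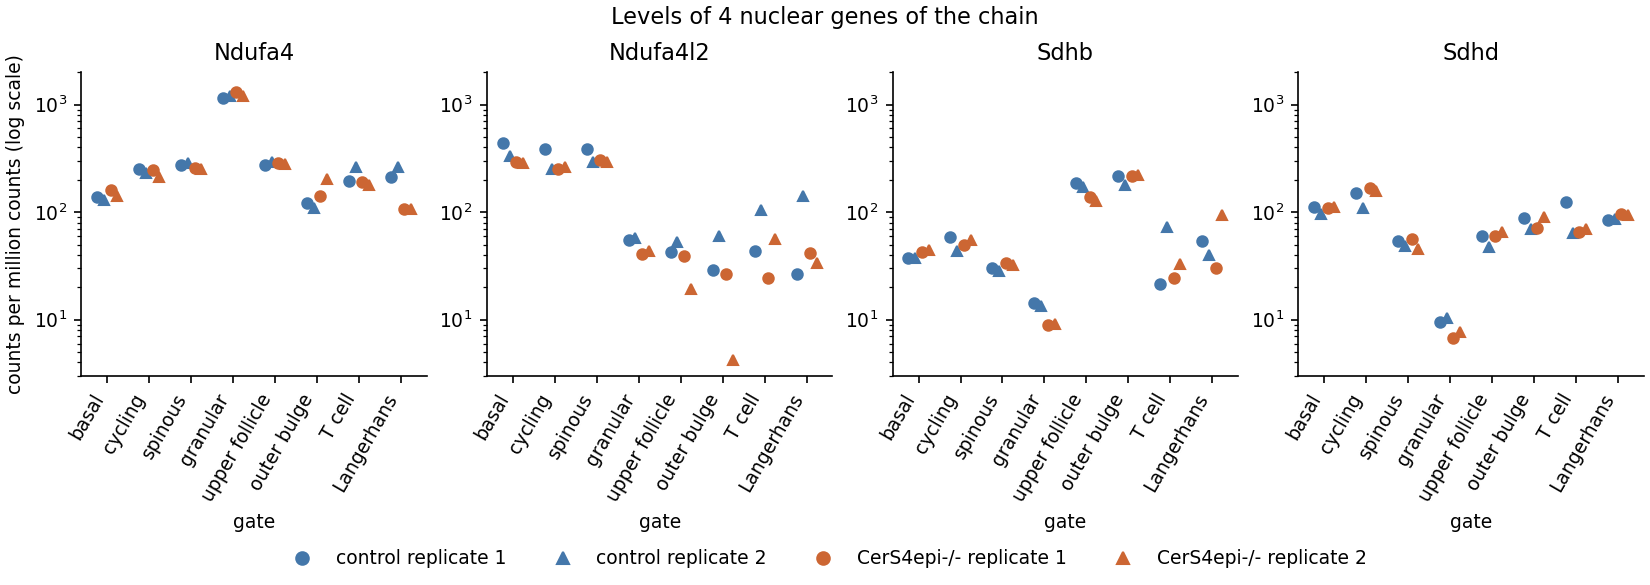
CPM of selected nuclear genes of the chain (vertical log axis) by gate, 1 point per mouse. Ndufa4 peaks in granular cells at 1158 to 1306 CPM, Sdhd falls from 96.0 to 111 CPM in basal to 6.72 to 10.3 CPM in granular cells, and Sdhb is highest in the follicle gates.

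Other nuclear genes past the threshold in granular cells included Atp5d, a subunit of the complex V stalk (log2 1.27), Ndufs5 (1.00), Uqcrb of complex III (0.96) and Ndufa11 (0.91) among the higher, and Ndufa1 (-1.32), Atp5g3 (-1.16) and Uqcrc1 (-1.03) among the lower. By plain share, Atp5d stood at 148 to 164 CPM in basal and 205 to 241 CPM in granular cells, higher in every mouse. Atp5g3, which encodes the c subunit of the complex V ring, stood at 712 to 842 CPM in basal and 188 to 212 CPM in granular cells. In spinous cells Ndufc1 (0.71), Atp5d (0.63), Ndufv3 (0.55) and Atp5g1 (0.53) were among the higher genes and Uqcrc1 (-0.68) and Ndufa1 (-0.53) among the lower. In the upper follicle gate Ndufa11 (0.60), Atp5mpl (0.56) and Ndufc1 (0.49) were higher, and Uqcrc1 (-0.99) and Atp5g3 (-0.61) lower.

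Between genotypes, few nuclear genes of the chain were called. In basal cells Uqcrh, the hinge subunit of complex III, rose from 475 and 479 to 567 and 556 CPM (log2 0.29, SE 0.068, edgeR adjusted p = 0.0352), and it was 1 of 81, with none lower, beside 4.5% and 3.01% of all genes. It was not called under the limit of 10%, at 2000 counts per cell or by library totals. No nuclear gene of the chain was called in cycling cells by edgeR or DESeq2, beside 0.853% of all genes higher and 0.292% lower with edgeR. Of the 80 tested, 6 had an unadjusted edgeR p under 0.05 and 61 were left without an adjusted p by DESeq2.

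In spinous cells 4 of 80 fell (5%) and none rose, beside 2.93% of all genes lower and 3.54% higher. The 4 are all accessory subunits of complex I. Ndufs4 went from 69.4 and 67.8 CPM in control to 51.9 and 49.6 CPM (log2 -0.44, SE 0.076, edgeR adjusted p = 0.0128). Ndufb3 went from 175 and 171 to 143 and 135 CPM, by -0.32, and Ndufa6 and Ndufa3 had log2 differences of -0.32 and -0.30. The mice of the groups did not overlap for these 4, and the count was 1 without control mouse 1, 9 without CerS4epi-/- mouse 1 and 2 without CerS4epi-/- mouse 2.

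In granular cells 7 of 80 fell (8.75%) and none rose, beside 4.03% of all genes lower and 6.82% higher. Sdhb fell by 0.56 on the log2 scale (SE 0.15), and Ndufa3 had a log2 difference of -0.38. Atp5g1 and Atp5g2, which with Atp5g3 encode the same mature c subunit, fell (log2 -0.37 and -0.36), while Atp5g3 was not called. Ndufa4l2 (-0.34), Cox7a2l (-0.32) and Ndufb1 (-0.29) fell too. By library totals alone 24 were called, and without CerS4epi-/- mouse 2 none was, with 4 the most under any mouse left out. Of 93 cytosolic ribosome genes tested in granular cells, 20 fell and 1 rose, and of 78 mitochondrial ribosome genes 3 fell.

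The upper follicle gate held 7 of the rises. Of 80 nuclear genes 7 rose (8.75%) and 1 fell, beside 8.4% of all genes higher and 6.3% lower, so the share that rose was near that over all genes. Cox4i1 went from 321 and 306 CPM in control to 426 and 412 CPM in CerS4epi-/- mice (log2 0.50, SE 0.098, edgeR adjusted p = 0.0048). Atp5g3 went from 414 and 356 to 531 and 514 CPM (log2 0.52, SE 0.11). Sdha rose by 0.43, Uqcrh and Ndufa1 by 0.38 and Cox6a1 by 0.36. Sdhb fell by 0.34 on the log2 scale, from 186 and 170 to 138 and 128 CPM, so within complex II the flavoprotein and the iron-sulfur subunit moved in opposite directions. The count of 8 was 2 with DESeq2 and 4 without CerS4epi-/- mouse 2. Glycolysis genes, from a list chosen with earlier results known, moved in the same gate, with 8 of 15 higher and none lower, and the basal and upper follicle markers of this gate were higher and its spinous and inner bulge markers lower, as given above.

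In the outer bulge, T cells and Langerhans cells no nuclear gene of the chain was called by edgeR or DESeq2, of 77, 69 and 64 tested. Of all genes, edgeR called 2.5% higher and 1.75% lower in the outer bulge. It called 0.0% and 0.0% in T cells and 0.0638% and 0.128% in Langerhans cells. The lack of calls in these last 2 gates is thus not particular to the chain. Unadjusted edgeR p-values were under 0.05 for 3, 0 and 2 of the nuclear genes of the chain.

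By edgeR, the genotype effect differed from the basal one for few nuclear genes. They were 2 of 81 in spinous, 4 of 81 in granular and 3 of 81 in upper follicle cells. Of all genes, 1.76% were higher and 1.48% lower in spinous cells. These shares were 2.75% and 2.39% in granular and 3.42% and 3.54% in upper follicle cells. Calls were thus few among the nuclear genes of the chain and among all genes alike. Sdhb had a genotype effect below the basal one, by a log2 difference of -0.81 (SE 0.17) in granular and -0.60 (SE 0.13) in upper follicle cells. The edgeR adjusted p-values were 0.0131 and 0.00756. In granular cells Cox7a2l (-0.49), Ndufa2 (-0.45) and Atp5g1 (-0.43) also differed from basal cells, and in spinous cells Ndufa4 (-0.36) and Ndufa6 (-0.32). In the upper follicle gate the effects on Atp5g3 and on Atp5k, a small membrane subunit of complex V, were higher than in basal cells by 0.38 and 0.39. DESeq2 called none of these nuclear genes and gave Sdhb in granular cells no adjusted p, with an unadjusted p under 0.05 for 4 spinous, 4 granular and 3 upper follicle genes, and with 1 mouse left out edgeR called 0 to 2 in spinous, 0 to 3 in granular and 0 to 6 in upper follicle cells. In T cells none was called by either tool (0.0786% of all genes higher, 0.196% lower), with 1 of 82 at an unadjusted edgeR p under 0.05.

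In Langerhans cells Ndufa4 was the 1 gene of 82 whose effect differed, beside 0.0322% of all genes higher and 0.651% lower. The difference for Ndufa4 was log2 -1.38 (SE 0.35, edgeR adjusted p = 0.0158). Its level was 214 and 260 CPM in control and 108 and 106 CPM in CerS4epi-/- Langerhans cells, of which there were 42 to 74 per mouse. Granular markers summed to 2569 and 7691 CPM in the control and 312 and 255 CPM in the CerS4epi-/- mice of this gate, and spinous markers to 6766, 19077, 6999 and 1335 CPM. Ndufa4 is high in granular cells, as given above, and the part of these keratinocyte transcripts in the difference was not tested. It was called without control mouse 1 and not without any other mouse.

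Genes around the chain were counted by the same fits. Of all genes tested, 4.5% rose and 3.01% fell in basal and 3.54% and 2.93% in spinous cells. These shares were 6.82% and 4.03% in granular and 8.4% and 6.3% in upper follicle cells. Of 29 assembly factors, which build the complexes, none was called in basal cells (edgeR), 2 fell in spinous, 3 in granular and 1 in upper follicle cells. Of 16 TCA cycle genes, 1 fell in basal and granular cells each and 1 rose in the upper follicle gate. Of 15 genes of mitochondrial DNA expression and its control, 1 fell in basal cells and 1 rose in upper follicle cells. A list of 9 further genes held carriers beside the chain and also Cyc1 and Ndufab1, subunits whose symbols the rule does not match. Of these 9, 1 fell in granular cells and 1, Slc25a4, the exchanger of ADP and ATP, rose in the upper follicle gate by log2 0.72. In basal cells 6 of 93 cytosolic ribosome genes rose. Of 8 dissociation response genes, 5 rose in basal, 5 in spinous and 6 in granular cells, and 1 fell in the upper follicle gate.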

How the data were processed

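Epidermal cells had been captured with BD Rhapsody, pooled with sample tags and sequenced. Per the labels and the methods of the study, the authors trimmed reads with fastp 0.23.2, mapped them to GRCm39 with STAR 2.7.10a (STARsolo, GeneFull_Ex50pAS, expectation maximisation for reads that fit several genes) and counted on protein-coding genes and lncRNAs of Gencode vM29. The deposited matrices hold expected counts, estimated counts of molecules per gene and barcode of which 4.55% to 4.81% of entries are not whole. The strand setting is not given in the sources used here, and 58 of 88 nuclear genes of the chain overlap a gene on the other strand and 8 one on the same strand. Atp5if1 goes by another symbol in these files, and 2 features are named Atp5o and share sequence.

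As in the study, a barcode needed 1200 counts, with 20% of them from mt- genes at the most. Cells were gated by summed markers per 10000 counts, with thresholds of 20 to 200 set after the marker distributions were seen. Of gated cells, 5.04% lay within 1.25 times their threshold. No doublet caller was run. Counts were summed per mouse and gate, rounded, filtered (filterByExpr), scaled by TMM and tested with the quasi-likelihood test of edgeR 4.0.16 in R 4.3.3, at an adjusted p of 0.05. Genotypes were compared within gates, gates within mice with the mouse as a block, and the genotype effect between gates as an interaction, which for T cells and Langerhans cells was added after seeing the data. Alternatives were DESeq2 1.42.0, its size factors, scaling without mt- genes or by library totals (added after seeing the data), no filter, no or a 10% limit, 2000 counts, gates 2 times as strict, each mouse left out and a block by replicate number. The edgeR step was tested on simulated data. Named genes were the 13 mitochondrial genes, complex II, isoform pairs and up to 5 nuclear genes per direction and comparison that passed the threshold with mice apart. Members, lists and tests were chosen with earlier results of these data known. All 4 libraries were used, and barcodes under 1200 counts entered no gate. SE are those of the fits.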

Additional observations from a re-analysis of the deposited data

Results flagged for a closer look

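The genotype effect differed from that in basal cells, by edgeR's interaction test, for the genes given here as log2 differences of the 2 effects. In granular cells these were mt-Atp8 (-0.464), mt-Nd2 (-0.414), mt-Nd1 (-0.402), mt-Nd3 (-0.402), Sdhb (-0.815), Cox7a2l (-0.493), Ndufa2 (-0.455) and Atp5g1 (-0.43). In spinous cells they were Ndufa4 (-0.361) and Ndufa6 (-0.324). In upper follicle cells they were Sdhb (-0.595), Atp5g3 (0.385) and Atp5k (0.385). In Langerhans cells Ndufa4 (-1.38) was called, beside the granular marker values given in the report. Of these genes, DESeq2 called mt-Atp8 and mt-Nd1 in granular cells and gave Sdhb in granular cells no adjusted p.

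Cells left out by the limit on mitochondrial counts were 3.87% and 4.01% of the CerS4epi-/- libraries, above the 0.796% and 0.992% of the control libraries. In barcodes too shallow for a cell, mitochondrial genes took 7.52% and 7.60% of counts in the CerS4epi-/- libraries, above 6.87% and 6.36% in control.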

How the results depend on the processing

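Values are counts called under an alternative, after the reported count. With at most 10% mt- counts, mitochondrial genes called between genotypes were 1 after 4 in basal, 0 after 3 in cycling, 0 after 1 in spinous and 1 after 8 in upper follicle cells, and the basal nuclear count was 0 after 1. Against basal cells they were 4 after 11 in cycling and in spinous, 5 after 8 in upper follicle, 1 after 0 in outer bulge, 6 after 13 in T and 1 after 10 in Langerhans cells, with 1 nuclear gene higher in T cells (after 0) and 1 in Langerhans cells (after 5). Gates with both CerS4epi-/- mice above both controls were 2 after 6 for the mitochondrial and 0 after 1 for the nuclear share. Under this limit 4 differences from basal cells changed sign, mt-Atp8 in cycling (0.0029), mt-Co1 in spinous (9.48e-05), mt-Co3 in spinous (0.16) and mt-Co3 in granular cells (0.12). With no limit, mitochondrial counts were 5 in cycling, 2 in spinous and 1 in outer bulge cells, and 8 and 1 for the granular and upper follicle interactions. The 10% limit removes cells by the quantity compared, and more basal than spinous or granular cells. Counts and signs under it therefore cannot show whether these differences hold. The cause of the other changes was not tested.

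By library totals without TMM, an alternative added after seeing the data, nuclear genes against basal cells were 13 higher and 42 lower in spinous, 4 and 67 in granular and 7 and 31 in upper follicle cells, with 3 higher in T cells, and mitochondrial genes called were 7 in T and 3 in Langerhans cells. Between genotypes, nuclear counts were 0 in basal and 24 in granular cells, and the mitochondrial count was 2 in spinous cells. Interactions gave 0 spinous and 1 upper follicle nuclear and 8 granular mitochondrial genes. Signs changed for Cox7a2 (-0.047) and Ndufa4l2 (-0.073) in spinous and for Cox6a1 (-0.21), Cox6b1 (-0.19), Cox7a2 (-0.12) and Cox8a (-0.42) in granular cells against basal. This follows from the scaling, which shifts all genes of a gate together. DESeq2 size factors gave 4 mitochondrial genes in Langerhans cells against basal and scaling without mt- genes 6.

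With no filter on low counts, genes called between genotypes were 0 nuclear in basal, 0 mitochondrial in cycling, 2 mitochondrial and 13 nuclear in spinous, 14 nuclear in granular, and 6 mitochondrial and 1 nuclear in outer bulge cells. Against basal cells the outer bulge had 1 mitochondrial and 16 lower nuclear genes and Langerhans cells 3 higher nuclear genes. DESeq2 called 2 mitochondrial genes in spinous cells, 4 nuclear in granular, 2 nuclear in upper follicle cells and, in Langerhans cells against basal, 1 mitochondrial and 25 lower nuclear genes. Its interactions gave 2 granular mitochondrial and 0 nuclear genes in spinous, granular, upper follicle and Langerhans cells. At 2000 counts per cell, basal cells had 2 mitochondrial and 0 nuclear genes and Langerhans against basal 6 mitochondrial. Stricter gates gave 0 nuclear in basal, 1 mitochondrial in cycling and 3 mitochondrial genes in Langerhans against basal. T cells at 2000 counts and the outer bulge with stricter gates had too few cells for a fit and were not run.

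With 1 mouse left out in turn, genotype counts ranged from 0 to 4 mitochondrial and 0 to 1 nuclear genes in basal, 0 to 0 mitochondrial in cycling, 1 to 2 mitochondrial and 1 to 9 nuclear in spinous, 0 to 3 and 0 to 4 in granular, 2 to 8 and 4 to 9 in upper follicle, 0 to 4 and 0 to 1 in outer bulge and 0 to 2 nuclear in Langerhans cells. Against basal cells the ranges were 2 to 4 lower nuclear genes in cycling, 5 to 7 mitochondrial in upper follicle, 2 to 7 lower nuclear in outer bulge, 0 to 1 higher nuclear in T and 3 to 6 mitochondrial, 3 to 4 higher and 28 to 47 lower nuclear genes in Langerhans cells. Interactions ranged from 0 to 1 mitochondrial and 0 to 2 nuclear in spinous, 0 to 5 and 0 to 3 in granular, 0 to 8 and 0 to 6 in upper follicle and 0 to 1 nuclear in Langerhans cells. Of the called values of single named genes, 680 kept their direction and call with a mouse left out and 200 lost the call, and under the other alternatives 1668 kept both, 221 lost the call and 9 changed sign.

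The replicate block, by the replicate number that mice of both genotypes share, gave 6 nuclear genes in basal, 8 mitochondrial in cycling, 9 nuclear in spinous, 2 mitochondrial and 3 nuclear in upper follicle and 1 of each in outer bulge cells. Deviations of same-numbered mice correlated at 0.10 in basal, 0.068 in spinous and -0.043 in upper follicle cells. With 2 pairs, these values cannot show whether the mice share more than a number.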
